A study of Mus musculus with 4 samples.

Results

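Orm1, Lrg1, Saa3, Hp and Cp are 5 genes of acute-phase proteins, which are secreted proteins whose amounts in blood change during inflammation. They were chosen by symbol with their levels on these same arrays already known, so their values are a description and carry no test. Every probe set annotated to only 1 gene symbol, that of a member, was taken, which gave 12 probe sets of 34958: 1 each for Orm1, Lrg1, Saa3 and Hp, and 8 for Cp. The genes are 5 of 18194 measured in this way.

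The study asked how the long noncoding RNA called lncMDSC in the labels, which the paper names lnc-C/EBPβ, acts in myeloid-derived suppressor cells (MDSCs), immature myeloid cells that suppress T cells. Bone marrow cells from C57BL/6 mice were given a lentivirus and grown with GM-CSF and IL-6 for 4 days, and total RNA was put on Affymetrix mouse arrays. All 4 groups carried a lentivirus and both cytokines. The groups were kdNC (control shRNA), kdLNC (shRNA to the lncRNA), oeNC (control lentivirus for overexpression) and oeLNC (lncRNA overexpression). Each group was 1 array. Differences therefore come without p-values and without an error from replicates. The age and number of mice were not given in the sources used here. The sources used here give no sort of the cells before RNA extraction, and neither cell shares nor the level of the lncRNA was analysed here. Fewer cells of one type and less RNA per cell cannot be told apart in such samples.

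During an acute-phase response, IL-6 acts through STAT3, and IL-1 and TNF act through NF-κB and C/EBP factors, on the liver, which then secretes large amounts of these proteins. Several are also made by myeloid cells: neutrophils store haptoglobin, LRG1 and α1-acid glycoprotein in their granules, and stimulated macrophages are a source of Saa3. IL-6 was present in every culture, so all levels below are those of cells under an acute-phase cytokine.

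Values are the log2 of the deposited intensities. A level of one probe set is not comparable with that of another, so differences were taken only across arrays. Statements that a gene lay below the median or near the top of an array, and sums of marker intensities, mix probe sets and are rough. As a yardstick, each difference was set beside the SD of oeNC minus kdNC over the 500 genes nearest in level. That spread mixes the effects of vector, culture and array, and does not measure replicate error. A gene was counted when it lay above the median of an array (the 50th percentile, 4.17 to 4.24 on the log2 scale) on at least 1 array of the pair, and all 5 genes did. Where a gene had several probe sets, the one of highest mean level stood for it.

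The promoters of Saa3 and Lrg1 are shown because these genes lay on opposite sides in the knockdown pair, and because C/EBP factors and STAT3 act on acute-phase promoters. Sequences are those of RefSeq (build GRCm38.p6), from a promoter table in which 3 of the 5 genes were matched (Saa3, Lrg1 and Cp, the last with 2 start sites). The promoters of Orm1 and Hp were not analysed here. Each is the 250 bases before the start site, 5′ to 3′ on the gene's strand, with matches to the C/EBP motif TTNNGNAA in capitals. The Saa3 window lies at chr7:46715677-46715926 and the Lrg1 window at chr17:56121947-56122196, both on the minus strand.
Saa3: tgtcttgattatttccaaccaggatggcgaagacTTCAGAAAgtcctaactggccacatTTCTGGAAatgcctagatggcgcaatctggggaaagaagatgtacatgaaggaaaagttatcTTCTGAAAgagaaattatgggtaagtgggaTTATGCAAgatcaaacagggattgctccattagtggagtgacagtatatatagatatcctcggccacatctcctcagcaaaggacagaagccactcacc
Lrg1: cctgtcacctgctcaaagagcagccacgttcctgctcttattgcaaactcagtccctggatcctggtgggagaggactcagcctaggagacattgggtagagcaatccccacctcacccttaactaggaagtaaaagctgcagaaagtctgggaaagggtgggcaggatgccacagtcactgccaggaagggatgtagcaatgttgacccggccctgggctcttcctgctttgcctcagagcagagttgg

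Searched on both strands, the Saa3 window held 4 matches to TTNNGNAA, the first base of the nearest lying 99 bases before the start (TTATGCAA), and the Lrg1 window held 0. Each of the 2 Cp windows held 1. Of 32536 promoter windows of this length, 36.8% held at least 1 match, so this short motif is common. The STAT motif TTCNNNGAA was found in 7.04% of all windows and in none of those of Saa3, Lrg1 and Cp. Matches of the 2 motifs may overlap. A match describes letters only and was not set against any binding data. The share of windows with 4 matches was not counted. Since Saa3 and Lrg1 were picked by their knockdown values, nothing is read from the contrast of 4 with 0.

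Orm1 encodes α1-acid glycoprotein, a carrier of basic drugs and lipids in plasma. Its level was 7.25 and 9.19 in kdNC and kdLNC, and 7.27 and 7.11 in oeNC and oeLNC. The kdLNC array stood alone, while the other 3 arrays lay close together. The intensity was 584 in kdLNC and 138 to 155 in the others. The knockdown difference (kdLNC minus kdNC) was 1.94, or 3.84-fold higher, which was the 5th highest of 11505 genes and 3.18 times the spread at that level (SD 0.61). The overexpression difference (oeLNC minus oeNC) was -0.16, and the control arrays differed by 0.024. In order of level, oeLNC, kdNC and oeNC were separated by less than the spread from each other, and the gap of 1.92 from oeNC up to kdLNC was larger than it.

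Orm1 has close relatives, and a probe set may take up RNA of a family member. Orm2 (1.14 to 1.5) and Orm3 (2.97 to 3.33) lay below the array median on all 4 arrays, and in kdLNC they were at 1.29 and 3.18. Their knockdown differences were 0.16 for Orm2 and 0.21 for Orm3.

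Lrg1 encodes leucine-rich α2-glycoprotein, which binds endoglin and modifies TGF-β signalling in vessels, and which neutrophils carry in granules. Its level was 6.23 and 4.54 in kdNC and kdLNC, and 7.0 and 6.60 in oeNC and oeLNC. The kdLNC array was again the one apart, here at the bottom. The intensity was 23.3 in kdLNC and 75.2 to 128 in the others. The knockdown difference was -1.69, or 3.23-fold lower, the 5th lowest of 11505 genes and beyond the spread (SD 0.57). The overexpression difference was -0.40, within the spread. The control arrays differed by 0.77, with oeNC higher, which is also more than the spread. Set against kdNC and oeNC averaged, Lrg1 differed by -2.07 in kdLNC and by -0.013 in oeLNC. With 16 added to each intensity before the log, which damps dim values, the knockdown difference of Lrg1 was -1.22 and that of Orm1 1.84.

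Saa3 encodes serum amyloid A3, an inflammatory apolipoprotein made mainly outside the liver. Its level was 12.56 and 13.15 in kdNC and kdLNC, and 12.96 and 12.81 in oeNC and oeLNC, with kdNC lowest and kdLNC highest. These are intensities of 6026 to 9113, near the top of arrays whose highest values were 11778 to 12309. The knockdown difference was 0.60 (1.51-fold higher), which was 1.29 times the spread (SD 0.46). The overexpression difference was -0.15 and the control difference was 0.41, both within it. No neighbours in the order of levels were separated by as much as the spread, and the knockdown difference against the mean of both controls was 0.39. The relatives of Saa3 that the liver makes, Saa1 (3.55 to 3.70 at its brighter probe set) and Saa2 (2.99 to 3.22), lay below the median of every array, and so did Saa4.

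Hp encodes haptoglobin, which binds free haemoglobin and hands it to the receptor CD163. Its level was 11.45 and 11.07 in kdNC and kdLNC, and 11.35 and 11.26 in oeNC and oeLNC. The knockdown array was the lowest, and all 4 arrays lay within 0.38 of each other, less than the spread (SD 0.51). The differences were -0.38 on knockdown (1.3-fold lower), -0.10 on overexpression and -0.09 between the controls. Cd163 was near the bottom of the arrays, at 1.9 to 2.17.

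Cp encodes ceruloplasmin, a copper-carrying ferroxidase that helps iron leave cells. Its brightest probe set (1417494_a_at) was at 7.47 and 7.98 in kdNC and kdLNC, and at 7.88 and 7.64 in oeNC and oeLNC. At this probe set kdNC was lowest and kdLNC highest, as for Saa3. The differences were 0.51 on knockdown, -0.24 on overexpression and 0.41 between the controls, all within the spread (SD 0.61). The gene is the one member with several probe sets, so its pattern could be read more than once, although these sets come from the same 4 RNA samples and are not replicates.

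Of the 8 Cp probe sets, 5 lay above the array median on all 4 arrays and 3 (1417497_at, 1441326_at and 1448735_at) on none. The 5 brighter sets were all higher in kdLNC than in kdNC, by 0.43 to 0.91, all lower in oeLNC than in oeNC, with differences of -0.24 to -0.94, and all higher in oeNC than in kdNC, by 0.41 to 1.11. Size varied between sets, and so did the order of arrays. At each brighter set except 1417494_a_at the highest array was oeNC, not kdLNC, and at 1417496_at the lowest was oeLNC. Probe set 1448734_at was at 5.07 and 5.98 in kdNC and kdLNC, and at 6.18 and 5.46 in oeNC and oeLNC, which gave the largest knockdown difference (0.91) and a control difference of 1.11. Probe set 1417496_at was at 5.27, 5.88, 5.92 and 4.98 in the same order of groups, and its overexpression difference of -0.94 was 2.05 times its spread. Probe set 1417495_x_at had 0.60, -0.44 and 0.84 for the knockdown, overexpression and control differences, and 1455393_at had 0.43, -0.29 and 0.57. The 3 dim sets ran from 0.0 to 0.17 on knockdown and from -0.24 to 0.13 on overexpression. Against the mean of both controls the 5 brighter sets were higher in kdLNC by 0.14 (1455393_at) to 0.35 (1448734_at), each within its spread. On the same footing the overexpression differences shrank to -0.037 (1417494_a_at), -0.023 (1417495_x_at), -0.0054 (1455393_at) and -0.17 (1448734_at), and 1417496_at, at -0.62, was the one beyond its spread (SD 0.46).

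**Figure D1:**
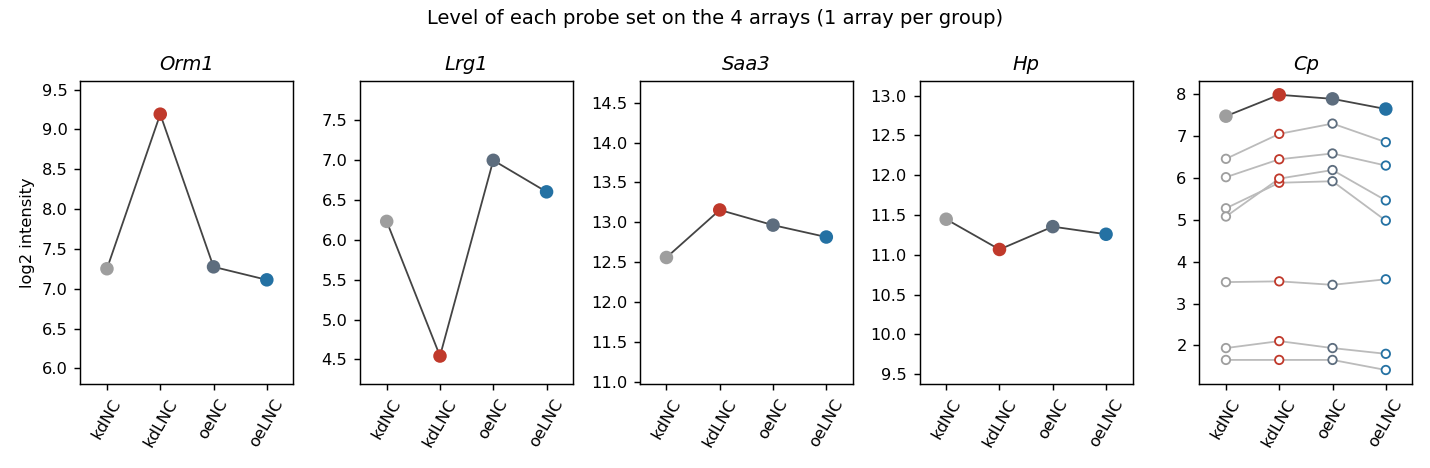
Log2 intensity of each probe set of the 5 genes on the 4 arrays, 1 array per group, with filled points for the brightest probe set, open points for the other probe sets of Cp, and lines that join the points of 1 probe set. Orm1 is at 9.19 in kdLNC against 7.11 to 7.27 elsewhere, and Lrg1 is at 4.54 in kdLNC against 6.23 to 7.0; the panels of Orm1, Lrg1, Saa3 and Hp span the same range.

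At the 2-fold threshold, 1 of 5 members was higher in kdLNC (Orm1) and 1 lower (Lrg1), and at 1.5-fold Saa3 joined Orm1, beside 2.36% of all genes higher and 1.96% lower by as much. Over all 11505 genes compared between kdLNC and kdNC, 0.478% were higher by 2-fold or more and 0.356% lower, and since the members were chosen with these differences known nothing is read from the contrast. In the overexpression pair, 0 of 5 members passed 2-fold in either direction, beside 0.295% of 11869 genes higher and 0.809% lower. All 5 members had a lower value in oeLNC than in oeNC, with differences of -0.10 to -0.40, all within the spread, and with Saa3 turning to 0.05 against the mean of both controls. Over all genes the median in this pair was -0.01, so a lower value was no rarer than a higher one. Nothing is read from the shared sign. Between the control arrays 0 of 5 members passed 2-fold, beside 3.03% of 11723 genes higher and 4% lower in oeNC.

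**Figure D2:**
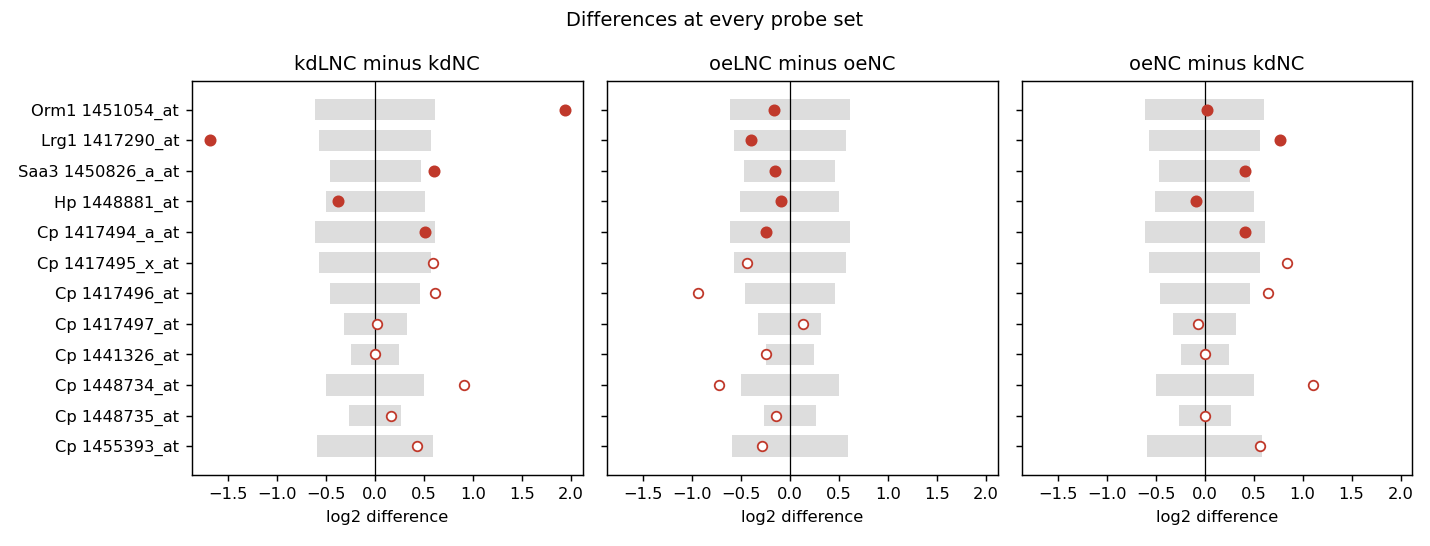
Log2 difference at each of the 12 probe sets in 3 panels (kdLNC minus kdNC, oeLNC minus oeNC, oeNC minus kdNC), with grey bars spanning 1 SD of the control difference at that level to either side of 0, filled points for the probe set that represents the gene and open points for the others. Orm1 (1.94) and Lrg1 (-1.69) lie far outside their bars on knockdown, and Cp sets 1417496_at and 1448734_at lie outside theirs in all 3 panels.

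**Figure D3:**
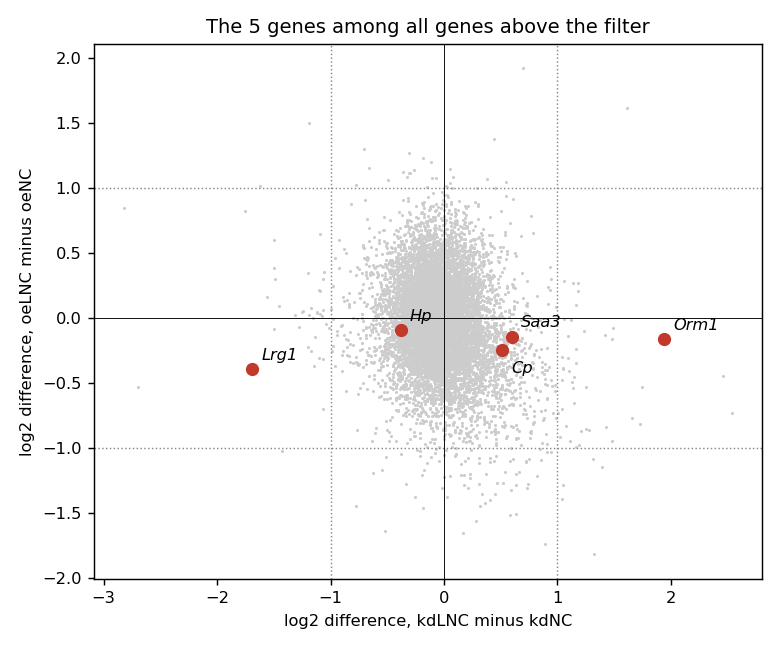
Knockdown difference (x axis) against overexpression difference (y axis) on the log2 scale, with grey points for genes above the array median in both pairs, red points for the 5 members and dotted lines at 2-fold. The members spread from -1.69 to 1.94 along the x axis and only from -0.40 to -0.10 along the y axis.

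Genes with a pattern like that of Orm1 or Lrg1 were looked for by the distance between log2 values centred on each gene's mean over the 4 arrays, among 12092 genes above the array median on at least 1 array. Nearest to Orm1 were Stfa3, a stefin that inhibits cysteine proteases (distance 0.34, where a flat profile lay at 1.72), Tbx21, which encodes the transcription factor T-bet (0.38), Slc7a3, an arginine transporter (0.43), AI662270 (0.55) and Ermn (0.56). Stfa3 was at 9.19 and 10.67 in kdNC and kdLNC, and at 8.90 and 8.74 in oeNC and oeLNC. Ermn lay above the array median in kdLNC alone (4.50, against 2.01 in kdNC, 2.05 in oeNC and 2.45 in oeLNC). It entered the search only through the array where it is high, so nothing is read from its likeness to Orm1. Nearest to Lrg1 were Ldhc, a lactate dehydrogenase (0.40, where a flat profile lay at 1.87), Il1r2, the decoy receptor for IL-1 (0.46), Scrg1 (0.60), Pvt1, a long noncoding RNA (0.60), and Adpgk, an ADP-dependent glucokinase (0.61). Il1r2 was at 10.21 and 8.95 in kdNC and kdLNC, and at 10.82 and 10.87 in oeNC and oeLNC. With 4 arrays, such likeness describes these arrays alone.

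Most other acute-phase genes did not lie above the array median. Of 37 listed, 30 were measured by a probe set for that gene alone and 11 passed the filter in each pair, not the same 11 (Serping1 passed in the knockdown pair and not in the other, Serpina3n the reverse). Fibrinogen chains (Fga, Fgb, Fgg), Crp, Apcs, Hpx, Itih3 and Itih4, all products of the liver, were among those below it. At the brightest probe set of each gene, none of the 11 differed by 1.5-fold on knockdown, where 2.36% of all genes were higher and 1.96% lower by as much, and their median was 0.12, beside -0.05 over all genes. The largest at these sets was Steap4, a metalloreductase, at 0.52 (6.49 in kdNC and 7.02 in kdLNC), then Cfb, complement factor B, at 0.37. Hamp, which encodes the iron hormone hepcidin, differed by 0.19 at its brightest set and by 0.70, past 1.5-fold, at its other one. Lcn2, the siderophore-binding lipocalin of neutrophil granules, was at 13.17 in kdNC and 13.29 in kdLNC, also near the top of the arrays.

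On overexpression 1 of the 11 that passed in that pair was at least 1.5-fold higher, Serpina3n, a serine protease inhibitor, which was at 4.19 in oeNC and 4.98 in oeLNC (0.80), close to the array median. Another 1 was lower, Mt2, a metallothionein that binds zinc and copper, which was at 8.07 in oeNC and 7.41 in oeLNC (-0.66) but 7.45 in kdNC. The background was 3.93% of genes higher and 5.38% lower. The list median was 0.02, beside -0.01 over all genes. Of 7 measured genes that the liver lowers in an acute-phase response, 1, Ttr, passed the filter, at 4.97 to 5.48.

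Of 24 measured inducers of the response (cytokines, their receptors and the factors that act downstream), 23 passed the filter. On knockdown 3 were at least 1.5-fold higher, namely Il1a (0.83), Socs3, the feedback inhibitor of IL-6 signalling (0.75), and Il6 itself (0.68), and 1 was lower, Osm, which encodes the IL-6 family cytokine oncostatin M (-0.63), where 2.36% of all genes were higher and 1.96% lower by as much. Il6 was at 10.09 and 10.77 in kdNC and kdLNC, and at 10.66 and 10.48 in oeNC and oeLNC. Socs3 was at 10.53 and 11.28 in kdNC and kdLNC, and at 12.11 and 11.51 in oeNC and oeLNC, and 2 further probe sets gave it knockdown differences of 0.62 and -0.03. At the brightest set of each gene, kdNC was the lowest array for Il6 and Socs3, as for Saa3 and Cp. Il6 and Socs3 were named for being higher in kdLNC than in kdNC, which favours a low kdNC. Nothing is therefore read from this likeness. The list median was -0.12 on knockdown and -0.18 on overexpression, where at the brightest sets Socs3 (-0.60) was the 1 gene lower by 1.5-fold and 0 were higher, beside 5.38% and 3.93% of all genes. Of 21 other probe sets of these inducers above the median on any array, 5 were lower by 1.5-fold on overexpression. They belonged to Nr3c1 (-0.79), Il1rap (-0.75), Nfkbiz (-0.66), Socs3 (-0.63) and Il6st (-0.62), and the remaining set of Socs3 had -0.31. At their brightest sets Nr3c1 had 0.46, Il1rap 0.09, Nfkbiz -0.54 and Il6st -0.46. The remaining sets of Nr3c1 ran from -0.52 to 0.44, and that of Nfkbiz had -0.13. On knockdown 2 of the 21 were higher, 1 of Nr3c1, the glucocorticoid receptor (1.04), and the 1 of Socs3 given above. Nr3c1 had -0.35 at its brightest set and -0.22 to -0.08 at its remaining sets. The share of such sets over all genes was not counted, so nothing is read from the counts of 5 and 2.

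Among the factors that act on acute-phase promoters, Cebpb differed by 0.01 on knockdown, Stat3 by 0.11 (-0.27 to 0.31 at its other probe sets) and Rela, an NF-κB subunit, by -0.23, while Cebpd, a C/EBP factor induced by IL-6, differed by -0.40 (-0.20 at its other probe set) on knockdown and by 0.38 (0.03 at the other set) on overexpression. The control arrays differed by -1.31 for Cebpd, 0.96 for Stat3 and -1.81 for Tnf, all beyond their spread (SD 0.62, 0.49 and 0.58), but by -0.55 at the other set of Cebpd and by 0.16 to 1.39 at those of Stat3.

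Of 20 measured receptors and partners of the members' proteins, 18 passed the filter. On knockdown 1 was at least 1.5-fold higher, Cd36, a scavenger receptor that binds serum amyloid A (0.70, and 0.78 at its other probe set), and 0 were lower, beside 2.36% and 1.96% of all genes. Of 22 other probe sets of these genes above the median on any array, 3 were higher by as much on knockdown, the 1 of Cd36, 1 of Lrp1, an endocytic receptor (1.29, against 0.29 at its brightest set), and 1 of Smad1 (0.71, against 0.36). Here too the share of such sets over all genes was not counted, and nothing is read from the count. On overexpression Slc40a1, the iron exporter ferroportin that works with ceruloplasmin, was higher (0.65, and 0.05 at its other probe set), and Smad1, a signal transducer below the endoglin receptor complex, was lower (-1.42, and -0.92 and -0.99 at 2 other probe sets). Each was 1 of 18 genes, where 3.93% of all genes were higher and 5.38% lower by as much. Among the other probe sets, 1 of P2rx7 (0.82, against 0.35 at its brightest set) and 1 of Smad5 (0.80, against -0.42) were also higher. Smad1 was at 6.91 and 7.28 in kdNC and kdLNC, and at 8.89 and 7.46 in oeNC and oeLNC, so that oeNC stood apart. Slc40a1 was at 8.36 and 8.15 in kdNC and kdLNC, and at 7.33 and 7.98 in oeNC and oeLNC. Its lowest array was thus oeNC, and oeLNC lay below both arrays of the knockdown pair. Eng itself, the LRG1 receptor endoglin, differed by -0.26 on knockdown and -0.27 on overexpression, and Hmox1, the haem oxygenase, by -0.31 and 0.30.

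Markers of mature neutrophils differed in the same pair of arrays as Orm1 and Lrg1. Of 12 measured markers of mature neutrophils, the level of 9 was lower by 1.5-fold or more after knockdown and that of 0 higher, beside 1.96% and 2.36% of all genes, with a median of -0.97 and a summed intensity of 23140 in kdLNC against 34031 to 36241 on the other arrays. Ltf (-2.70) and Camp (-1.5), granule proteins like LRG1, were the lowest, and Lcn2 (0.12) and Mmp8 (0.11) were level. Among the granule-stored acute-phase proteins, Lrg1 (-1.69) lay on the same side as these markers. Hp (-0.38) did too, but within its spread (SD 0.51). Orm1 (1.94) lay on the other side, and Lcn2, which is in both lists, was level (0.12). Of 6 markers of primary granules, 2 were at least 1.5-fold lower (median -0.50, summed intensity 898 in kdLNC and 878 to 1129 elsewhere). Of 8 monocyte and macrophage markers, 1 was higher, F13a1 (0.68), and 0 lower (median -0.07, summed intensity 7234 in kdLNC and 7926 to 9017 elsewhere). F13a1 was at 5.87 and 6.55 in kdNC and kdLNC, and at 7.27 and 6.78 in oeNC and oeLNC, so that kdNC was its lowest array. Of 5 eosinophil markers, 4 passed the filter and 3 were lower (median -0.98). Their summed intensity was 2654 in kdNC and 1190 to 1401 on the other arrays, and Il5ra lay below the median on all 4. The part of these cells in the members' differences was not tested.

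On overexpression, 1 of the 12 neutrophil markers was lower by 1.5-fold (Cd177, -0.59) and 0 were higher, with a median of -0.06. Over all genes 5.38% were lower and 3.93% higher by as much. Of the MDSC and myeloid markers, Itgam, S100a8, S100a9, Csf3r, Arg1 and Nos2 all lay above the median of every array. Arg1, the arginase of suppressive myeloid cells, was at 8.80 and 10.53 in kdNC and kdLNC, and at 11.19 and 10.38 in oeNC and oeLNC. Its lowest array was kdNC, as for Saa3 and the brightest set of Cp, but Arg1 levels were picked after they were seen and nothing is read from this. Hepatocyte markers were low: Alb, Ahsg, Apoa1, Serpina1b, Fgb and Cyp2e1, 6 of 8, lay below the median on all arrays, and the summed intensity of the list was 105 to 139. The 3 measured adipocyte markers, Adipoq, Lep and Cidec, also lay below it on every array (sum 13.8 to 17.8). Of 8 stromal markers, 6 passed it on at least 1 array, and their sum was 168 to 186. None of these lists is at 0, since the deposited intensities have no 0.

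**Figure D4:**
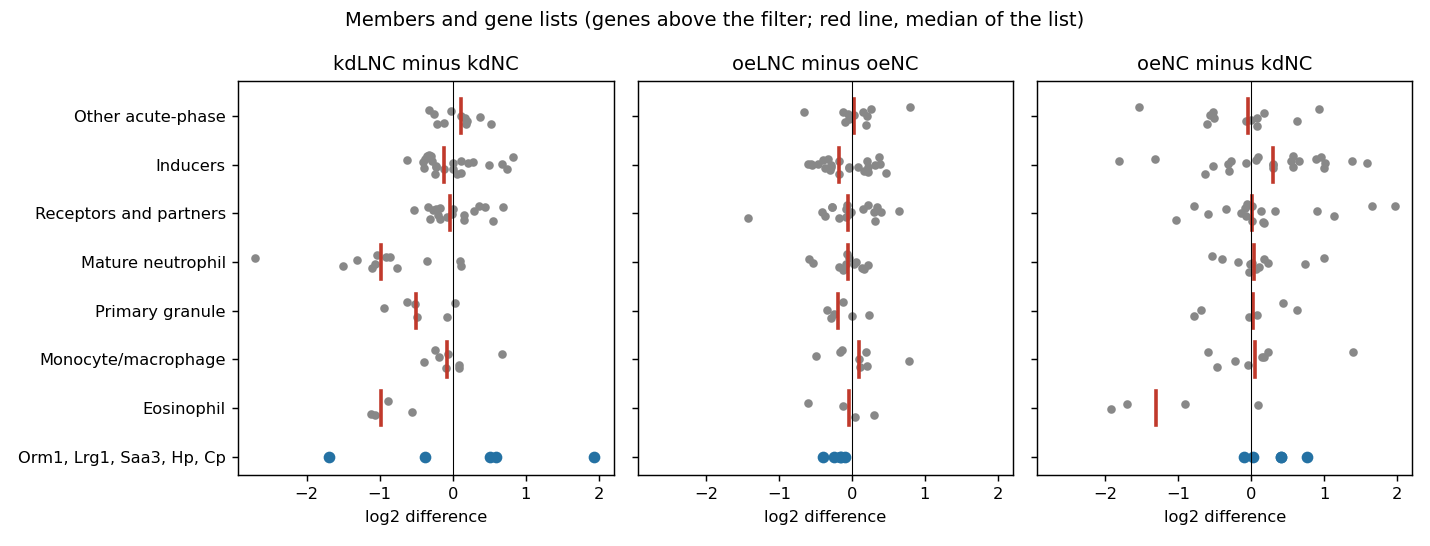
Log2 difference of every gene that passed the filter in 7 lists (grey; red lines mark medians) and of the 5 members (blue), with a panel each for knockdown, overexpression and oeNC minus kdNC. On knockdown the neutrophil markers (labelled mature neutrophil) have a median of -0.97, and the members lie from -1.69 to 1.94. The other acute-phase genes, with a median of 0.12, stay within 1.5-fold.

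RNA quality measures and, apart from them, added control RNAs also differed between arrays. The log2 ratio of the 3′ to the 5′ probe set of β-actin was 1.61 in kdNC and 1.96 to 1.97 on the other arrays, and that of Gapdh was 0.51 to 0.69. Bacterial control RNAs (lys, phe, dap and thr) differed by -0.22 to 0.31 in the knockdown pair and by -0.13 to -1.46 in the overexpression pair. Orm1 and Lrg1 had their outlying level in kdLNC, and Saa3 and the brightest set of Cp their lowest in kdNC. The part of RNA quality in these differences was not tested.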

How the data were processed

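The authors deposited, for each of 4 arrays, linear intensity values of 45101 probe sets, already normalized and summarised. Per the labels, the submitters' processing notes list RMA but give no settings. The paper's methods name limma. With a single array in each group it has no residual degrees of freedom, and no test was run. Medians of the arrays lay between 4.17 and 4.24 (log2). Precision is limited by their number.

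Groups were taken from the labels. By the platform annotation 34958 probe sets have 1 symbol, 932 have several and 9211 have none. Those with 1 symbol were analysed. Of 146 listed genes, 130 were measured. Log2 differences were computed with numpy 2.4.6, pandas 2.3.3 and statsmodels 0.14.6 under Python 3.11.15, with figures from matplotlib 3.10.9, and the calculation was tested on simulated data.

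Genes named were every member, listed acute-phase genes, inducers and partners past the filter and 1.5-fold in either pair, the 5 profiles nearest to Orm1 and to Lrg1, relatives that a probe could confuse, and defining markers. Others named (Steap4, Cfb, transcription factors, Tnf, Eng, Hmox1, Cd163, Hamp, Serping1, Arg1 levels, and genes named for a probe set other than the brightest) were chosen after their values were seen. Members and lists were chosen with earlier results of these data known. The alternatives tried were centring on array medians, quantile normalization of the deposited values, loess within a pair, averaging a gene's probe sets, leaving out ambiguous ones (_x_at, _s_at, _a_at), both control arrays averaged, 16 added before the log, no filter, a 70th percentile filter, and a 2-fold list threshold.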

Additional observations from a re-analysis of the deposited data

How the results depend on the processing

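No paired analysis was possible because no group holds more than 1 array, so none could be left out either. Of 97 member differences under the alternatives, 97 moved by less than the spread of the control difference at that level. Most member differences were themselves smaller than that spread, so this yardstick could hardly flag them. Lrg1 on overexpression went from -0.40 to -0.013 with the mean of both controls without being flagged. Saa3 on overexpression was the 1 that changed sign, from -0.15 to 0.05 with the mean of both controls. The knockdown difference ran from 1.84 to 1.97 for Orm1, from -1.22 to -2.07 for Lrg1, from 0.39 to 0.62 for Saa3, from -0.33 to -0.43 for Hp and from 0.30 to 0.54 for Cp. For the other acute-phase genes, 45 of 58 list values were within 1.5 times the count or 0.1 of the median. On knockdown, the count higher by 1.5-fold was 1 (Hamp) and the median -0.025 without ambiguous probe sets (where Saa3 has no value), the counts were 2 higher and 1 lower with the mean of both controls, and the median was 0.013 with no filter. On overexpression, the count lower was 0 after quantile normalization and with the mean of both controls, the count higher was 0 with 16 added and with the 70th percentile filter, both were 0 at 2-fold, and with no filter the count higher was 3 and the median 0.18. The filter and threshold act by construction, and for the others the cause was not tested. Background was not analysed here, so the dim probe sets are the least certain.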
